A study of Homo sapiens with 24 samples.

Results

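ZNF genes encode zinc finger proteins, and the set described here is the part of them that a bead array measured above background in every sample of a time course in a lung cancer line. A probe belonged to it if its annotated symbol was ZNF followed by digits only and its detection p-value, which compares a probe with negative control beads, was under 0.01 on all 24 arrays. The set was therefore chosen by measured detection, not by change. It held 232 probes of 200 genes, out of 642 probes of 443 ZNF genes and 47286 probes in all. Of the other ZNF probes, 159 were detected on at least 2 arrays but not on all 24, 18 on 1 array and 233 on 0 arrays. Detection chose the set, so the members' presence above background is a description and no result. The members nearest the threshold on its inner side were ZNF134, with a highest detection p of 0.00914, and ZNF667, ZNF23 and ZNF438, each at 0.00783. Just outside it, with 1 array of 24 failing, were ZNF256, ZNF32 and 1 probe each of ZNF830 and ZNF839, whose highest detection p was 0.0104.

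Most human ZNF proteins carry tandem C2H2 zinc fingers, short loops held by a zinc ion, that read DNA sequence. Many also carry a KRAB domain, which recruits TRIM28 and, through it, the histone methyltransferase SETDB1 and heterochromatin proteins that silence the bound locus, often a transposable element. A smaller number have other folds and roles, among them the LIM-domain, actin-associated protein ZNF185 and ZNF207, a spindle and kinetochore protein also called BuGZ.

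The study measured RNA of H838, an established human line of non-small cell lung cancer, grown to confluence in wells whose transwell inserts carried either HPAEC, endothelial cells of the human pulmonary artery, or more H838 cells as the homogeneous control. Both co-cultures were kept in the endothelial growth medium, which contains EGF, bFGF, an IGF, VEGF and hydrocortisone. The unscratched monolayers were lysed at 0 h, and the others at 9 times after several scratches had been made to start migration, at 0.5 h, hourly from 1 to 5 h, and then at 10, 15 and 24 h. Each co-culture had 12 arrays: the 0 h and 24 h points had 2 each and the rest 1. No array held unscratched cells after 0 h, so the scratch and the time in culture cannot be told apart, and in a lysate neither can fewer cells of a kind and less RNA per cell.

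The 24 arrays lay on 2 chips of 12. All HPAEC arrays but the replicate 2 arrays were on chip 1, together with the control arrays of 0 h (replicate 1) and 0.5 h, and the remaining arrays were on chip 2. Chip and co-culture therefore nearly coincided, and chip was a term of every fit. Per array 15488 to 17555 probes were detected. Of 12 endothelial markers 0 were detected on all arrays and 7 on none, among them VWF, CDH5 and KDR, while EGFL7 was detected on 21 and TEK on 3. Their summed linear intensity was 582 to 667 beside HPAEC and 577 to 671 beside H838. Of 7 epithelial markers EPCAM was detected on 24 arrays and KRT18 on 21. CDH1 was detected on 4, KRT8 on 2, KRT19 on 1 and KRT7 and CLDN4 on 0. Of 6 fibroblast genes COL1A1, COL1A2, COL3A1 and LUM were detected on 24 arrays, PDGFRB on 22 and DCN on 1. The part of these genes in the results was not tested. Of 4 leukocyte markers with a probe, PTPRC and CD3E were detected on 0 arrays, CD14 on 5 and LYZ on 2.

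As a group the ZNF probes stood above their unscratched level from 3 to 10 h, while the other well-detected probes had medians near 0. Over both co-cultures the median member change from 0 h, on the log2 scale, stood at -0.003 by 0.5 h, -0.04 by 1 h and 0.05 by 2 h. It then reached 0.09 (3 h), 0.11 (4 h), 0.12 (5 h) and 0.10 (10 h), and the last 2 times gave 0.04 and 0.05. The 13386 other probes detected on all arrays had medians between -0.015 and 0.001 at these 9 times. The group's course was thus a shallow rise that began after 1 h and was smaller again by 15 h.

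The same shape appeared in 2 courses that shared no array, the 1 beside HPAEC on chip 1 and the 1 beside H838 on chip 2. Each course was set against only 1 unscratched array, so a deviation of that array shifts all its later times together. Averaged over 3, 4 and 5 h, called the middle window here, the median member change was 0.12 beside HPAEC and 0.07 beside H838, against -0.01 in both for the other probes. In both courses 110 of 232 members (47.4%) lay above 0 in this window, against 29.7% of the other probes, and 40 (17.2%) lay below 0 in both, against 33.8%. The share that moved the same way in both courses was 64.7% for members and 63.5% for the others, so the counts of members leaned to rises while the share of matching courses was close to that of the others. In the late window (10, 15 and 24 h) the members' medians were 0.04 and 0.06. There 39.7% lay above 0 in both courses, against 32.3% of the other probes, and 25% below, against 32.6%. The early window was 0.5, 1 and 2 h, without a 0.5 h array on chip 2. In it 26.3% of members lay above 0 in both, against 22.8% of the other probes, and 26.7% below, against 28%.

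**Figure D1:**
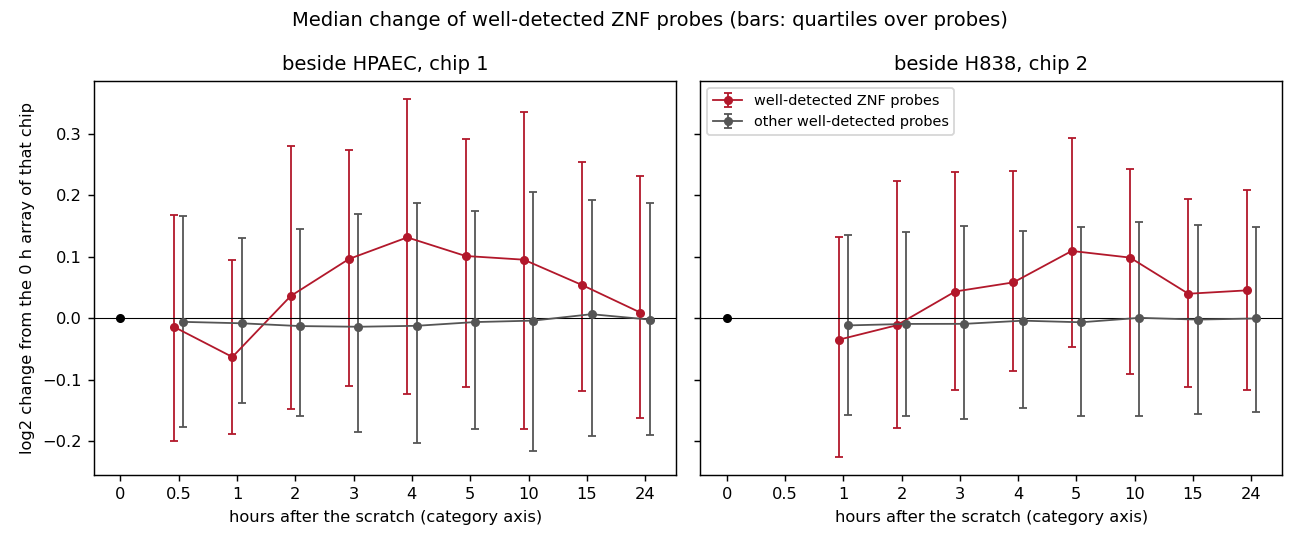
Median log2 change of the 232 ZNF probes (red) and of 13386 other probes detected on all arrays (grey) from the 0 h array of the same chip (black point), by hours after the scratch. The bars span the quartiles over probes, each time is 1 array, and the control array of 0.5 h, which was on chip 1, is not drawn. The red medians lie above the grey ones from 3 to 10 h in both panels.

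How far this rise can be read depends on the scaling of the arrays. Quantile normalization, used throughout, holds each array's overall distribution fixed. When arrays were instead brought only to a common median, the median of the other well-detected probes moved by as much as -0.40 (beside H838 at 3 h) and 0.25 (beside HPAEC at 24 h) from the 0 h array. Member medians beside H838 on chip 2 were then below 0 from 1 to 10 h, for instance -0.33 at 3 h, where the other probes had -0.40, and -0.05 at 5 h, where they had -0.17. In the fit to all arrays the middle-window median under that scaling was 0.05 for members and -0.06 for all probes tested, and the late-window median 0.14 and 0.06. The direction of the members' group change relative to 0 h thus flipped on those arrays, while their position above the other probes from 3 to 10 h did not.

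The rise appeared among dim and bright members alike. When members were split by mean level into 3 sets of equal size, from dim to bright, the middle-window median was 0.11, 0.08 and 0.12, and other probes in the same level ranges had -0.01, -0.02 and -0.01. The members' mean log2 intensities spanned 6.46 to 13.97, with a median of 7.76. All 6 arrays of the middle window lay above all 4 unscratched arrays for 26 members (11.2%), against 5.47% of the other probes, and below them for 6 members (2.59%), against 4.67%.

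The limma fit asked which single members changed at any time. Of the 232 probes 53 (22.8%, in 47 genes) passed the moderated F test over the 9 times, where 14.7% of all 20054 probes tested and 17.6% of the other well-detected probes passed. At an unadjusted p under 0.05 there were 105 members (45.3%), against 31.1% of all probes tested. At its largest change 42 of the 53 (79.2%) were above 0 h and 11 below, while 53.4% of the other well-detected probes past the same test were above. The largest change was a rise in the early window for 3, in the middle window for 21 and in the late window for 18. It was a fall in these windows for 3, 5 and 3 members. The middle-window rises were 39.6% of the 53, against 19.4% of the 2350 other well-detected probes past the test, and the late-window rises 34% against 27.9%. Middle-window falls were 9.43% against 17.1%, and late-window falls 5.66% against 24.8%. The 2 most frequent courses among members were a rise that peaked at 3 to 5 h and one that peaked at 10 h or later.

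**Figure D2:**
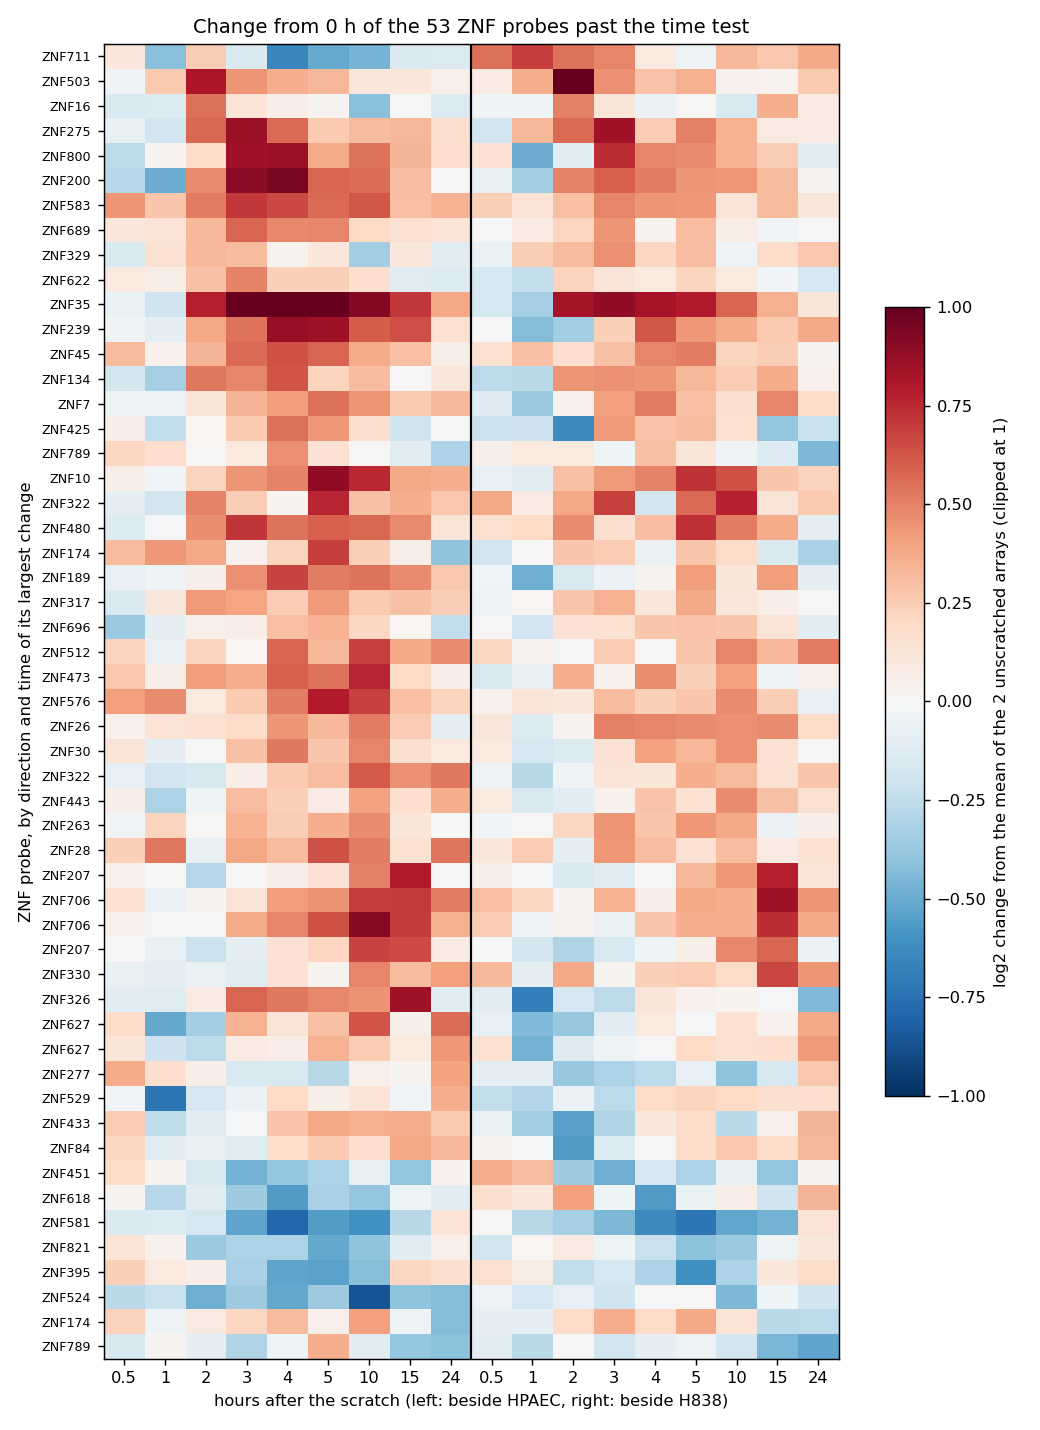
Log2 change of the 53 ZNF probes past the time test from the mean of the 2 unscratched arrays of the same co-culture, at the 9 times after the scratch (left block beside HPAEC, right block beside H838). Rows are ordered by direction and by time of the largest change, colours are clipped at 1, and a gene with 2 rows has 2 probes. The upper 42 rows are rises and the lower 11 are falls at the largest change.

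In the middle window 35 probes of 34 genes were higher than at 0 h (15.1%) and 5 lower (2.16%). Among all probes tested 5.39% were higher and 4.52% lower, and among the other well-detected probes 6.51% and 5.57%. The 35 rises ran from 0.24 (ZNF696) to 0.98 (ZNF35) on the log2 scale. Under median scaling 11 members passed (4.74%, against 3.11% of all probes tested), 8 higher and 3 lower. Without the HPAEC 0 h replicate 2 array 22 passed (9.48% against 5.03%), and without the H838 0 h replicate 1 array 24 (10.3% against 5.6%).

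ZNF35, a C2H2 zinc finger protein, had the largest change of any member. Beside HPAEC its log2 intensity was 6.70 and 6.66 on the 2 unscratched arrays, 6.61 at 0.5 h, 6.48 at 1 h, 7.46 at 2 h, 7.73 at 3 h, 7.94 at 4 h, 7.72 at 5 h, 7.60 at 10 h, 7.39 at 15 h, and 7.03 and 7.10 at 24 h. Beside H838 it was 7.08 and 7.05 unscratched, 6.89 at 0.5 h, 6.73 at 1 h, 7.90 at 2 h, 7.95 at 3 h, 7.89 at 4 h, 7.86 at 5 h, 7.65 at 10 h, 7.42 at 15 h, and 7.25 and 7.12 at 24 h. Both courses dipped until 1 h, jumped by about 1 unit between 1 and 2 h, stayed high until 5 h and came down again by 24 h. Every array from 2 to 15 h lay above the 4 unscratched arrays. The middle-window change was 0.98 ± 0.08 (SE; a fold of 1.97; adjusted p = 1.41e-06), and it was 1.09 beside HPAEC on chip 1 and 0.85 beside H838 on chip 2. With the authors' normalized values or without background correction it was 0.64, and the call held.

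ZNF200, another C2H2 protein, followed nearly the same course. Its log2 intensity was 7.97 and 7.70 unscratched beside HPAEC and 7.91 and 8.04 beside H838. At 1 h it was 7.34 and 7.63, and at 3, 4 and 5 h it was 8.73, 8.78 and 8.42 beside HPAEC and 8.57, 8.49 and 8.42 beside H838. The groups of unscratched and middle-window arrays did not overlap, and the 1 h arrays were the lowest of each course. The middle-window change was 0.67 ± 0.08 (adjusted p = 0.000144). The gene's other member probe changed by 0.28 and did not pass (adjusted p = 0.107).

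ZNF10, also known as KOX1 and the source of the KRAB domain used in many synthetic repressors, rose more slowly. Beside HPAEC its unscratched arrays read 7.02 and 6.27, and its arrays of 3, 4 and 5 h 7.09, 7.14 and 7.53. Beside H838 they read 6.90 and 6.79, and 7.27, 7.34 and 7.57. The 5 h arrays were the highest of both courses, and the 2 unscratched HPAEC arrays differed by more than the fitted change. The fitted middle-window change was 0.58 ± 0.09 (adjusted p = 0.000961).

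The other large rises of this window were ZNF800 with 0.63 ± 0.12 (adjusted p = 0.00285), ZNF239, the human relative of mouse Mok2, with 0.59 ± 0.11 (adjusted p = 0.00276), and the KRAB gene ZNF562 with 0.56 ± 0.12 (adjusted p = 0.00726). ZNF800 read 8.84 and 8.89 at 3 h against 7.87 to 8.19 on the unscratched arrays. ZNF239 read 8.20 and 8.16 at 4 h against 7.29 to 7.60. ZNF562 lost its call under median scaling (adjusted p = 0.0854), and the calls of the other 5 named rises held there. ZNF275 peaked at 3 h, at 9.05 beside HPAEC and 9.16 beside H838 against 8.08 to 8.35 unscratched, a change of 0.85 ± 0.13 at that time (adjusted p = 0.002).

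**Figure D3:**
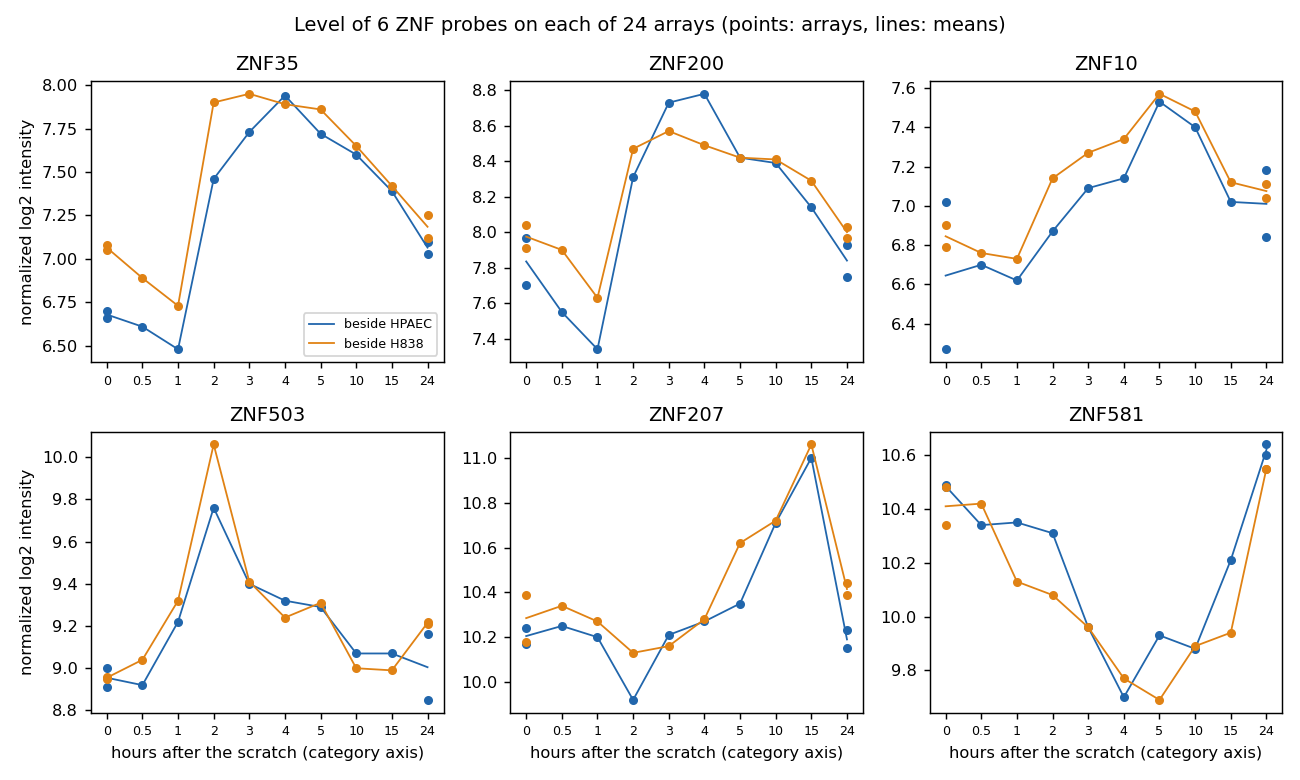
Normalized log2 intensity of 6 ZNF probes on each of the 24 arrays, by hours after the scratch, beside HPAEC (blue) and beside H838 (orange). Points are arrays and lines join the means. ZNF35 and ZNF200 dip at 1 h and jump at 2 h, ZNF10 is highest at 5 h, ZNF503 peaks at 2 h, ZNF207 is highest at 10 and 15 h, and ZNF581 is lowest at 4 to 5 h.

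Over the 10 time means the members most like ZNF35 were ZNF200 (r = 0.983), ZNF134 (0.961), ZNF562 (0.891), ZNF480 (0.876) and ZNF830 (0.871), a Pearson correlation over 10 means that share the same arrays. ZNF134, the dimmest of these, read 6.40 to 6.56 on the unscratched arrays and 6.71 to 7.12 at 3 to 5 h, with a middle-window change of 0.43 ± 0.08 (adjusted p = 0.00325). ZNF830, which is linked to splicing of pre-mRNA, had a flatter course, with 0.26 ± 0.06 (adjusted p = 0.0167).

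Of the 200 member genes 175 had an entry in the RefSeq promoter table (build GRCh38.p14), which gives 250 bases before and 50 after the annotated start. The promoters of the 6 named middle-window risers and of ZNF581, the member that fell most, are printed to show what the start regions of genes with opposite courses look like. Capitals mark TGACG (a CRE half-site), CCGGAAG (an ETS motif) and GGGCGG (a GC box) on either strand, so a full CRE, TGACGTCA, appears as 8 capitals. The regions are chr3:44648482-44648781 (plus strand) for ZNF35, chr16:3235109-3235408 (minus) for ZNF200, chr7:127392659-127392958 (minus) for ZNF800, chr10:43574567-43574866 (minus) for ZNF239, chr12:133130377-133130676 (plus) for ZNF10, chr19:9675051-9675350 (minus) for ZNF562 and chr19:55643399-55643698 (plus) for ZNF581.
ZNF35: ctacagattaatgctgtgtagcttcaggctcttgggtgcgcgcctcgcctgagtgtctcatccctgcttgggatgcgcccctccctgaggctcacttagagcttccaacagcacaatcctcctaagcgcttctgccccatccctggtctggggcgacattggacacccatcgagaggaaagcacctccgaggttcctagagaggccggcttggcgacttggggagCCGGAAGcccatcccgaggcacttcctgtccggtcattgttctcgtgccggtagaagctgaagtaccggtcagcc
ZNF200: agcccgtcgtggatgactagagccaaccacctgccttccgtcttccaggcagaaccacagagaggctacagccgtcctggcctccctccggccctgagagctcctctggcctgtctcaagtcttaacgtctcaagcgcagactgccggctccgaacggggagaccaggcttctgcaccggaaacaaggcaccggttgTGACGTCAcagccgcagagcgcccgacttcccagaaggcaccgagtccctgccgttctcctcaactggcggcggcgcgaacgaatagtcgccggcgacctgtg
ZNF800: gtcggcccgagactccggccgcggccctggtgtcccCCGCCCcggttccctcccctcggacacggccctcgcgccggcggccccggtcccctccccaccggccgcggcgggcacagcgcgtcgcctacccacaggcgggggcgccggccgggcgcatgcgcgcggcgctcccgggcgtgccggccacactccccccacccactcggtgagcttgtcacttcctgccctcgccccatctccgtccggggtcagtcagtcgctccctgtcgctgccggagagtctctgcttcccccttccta
ZNF239: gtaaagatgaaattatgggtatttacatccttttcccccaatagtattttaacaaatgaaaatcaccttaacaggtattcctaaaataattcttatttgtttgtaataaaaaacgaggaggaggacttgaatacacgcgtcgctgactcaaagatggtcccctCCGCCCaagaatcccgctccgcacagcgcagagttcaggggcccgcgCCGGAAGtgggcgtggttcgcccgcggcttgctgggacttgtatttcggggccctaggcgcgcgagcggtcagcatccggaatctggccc
ZNF10: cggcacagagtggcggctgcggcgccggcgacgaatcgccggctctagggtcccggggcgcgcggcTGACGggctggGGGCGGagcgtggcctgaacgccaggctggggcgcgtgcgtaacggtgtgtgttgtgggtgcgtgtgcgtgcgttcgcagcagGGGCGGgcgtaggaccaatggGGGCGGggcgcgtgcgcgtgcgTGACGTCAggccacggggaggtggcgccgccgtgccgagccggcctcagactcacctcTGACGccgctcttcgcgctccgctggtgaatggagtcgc
ZNF562: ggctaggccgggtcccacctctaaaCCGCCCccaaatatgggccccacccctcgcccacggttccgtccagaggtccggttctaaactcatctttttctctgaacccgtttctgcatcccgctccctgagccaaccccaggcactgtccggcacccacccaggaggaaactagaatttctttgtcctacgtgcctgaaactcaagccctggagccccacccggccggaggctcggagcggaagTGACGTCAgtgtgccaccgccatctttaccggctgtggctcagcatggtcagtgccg
ZNF581: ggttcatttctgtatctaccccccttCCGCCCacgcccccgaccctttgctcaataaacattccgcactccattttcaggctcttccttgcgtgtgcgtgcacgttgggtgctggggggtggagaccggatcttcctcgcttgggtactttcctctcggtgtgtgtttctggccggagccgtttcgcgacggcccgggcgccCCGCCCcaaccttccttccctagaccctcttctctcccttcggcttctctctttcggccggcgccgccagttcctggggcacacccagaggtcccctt

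The ZNF200, ZNF10 and ZNF562 windows hold the full CRE, and they are all 3 of the risers that do. The windows of ZNF35, ZNF800, ZNF239 and ZNF581 hold no TGACG. ZNF35 and ZNF239 each hold 1 ETS motif, ZNF800, ZNF239 and ZNF562 each 1 GC box, and ZNF10 and ZNF581 hold 3 and 2 GC boxes. Over all entries the full CRE was in 3 of the 26 middle-window risers with a promoter (11.5%), in 10 of 175 members (5.71%), in 3.54% of 7152 other well-detected genes and in 1.98% of all 27305 promoters. TGACG was in 50% of the risers, 38.3% of members, 36.4% of the other well-detected genes and 25% of all promoters. CCGGAAG was in 36.6% of members, against 20.1% of the other well-detected genes and 10.7% of all promoters, and in 23.1% of the risers. GGGCGG was in 65.4% of the risers, 68.6% of members, 72.6% of the other well-detected genes and 44.6% of all promoters. The members as a whole thus held the ETS motif more often than the other detected genes, and the risers did not exceed the members in it.

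5 more motifs were searched on both strands. AP-1 (TGAGTCA) was in 2.86% of members, 2.63% of the other well-detected genes and 4.92% of all promoters. In the same order the E-box (CACGTG) was in 6.29%, 10.8% and 7.43%, NRF1's motif in 3.43%, 2.5% and 1.36%, YY1 (AAGATGGC) in 6.86%, 6.15% and 3.03%, and the HIF core (ACGTG, which every E-box contains) in 22.9%, 27.9% and 21.6%. Among the 26 risers AP-1 and YY1 were each in 2 (7.69%), the E-box and NRF1's motif each in 1 (3.85%), and the HIF core in 5 (19.2%). None of these 5 motifs is marked in the printed sequences. All motif counts are letter matches, not shown to be bound sites.

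The 5 members that fell in the middle window were ZNF581, ZNF395, ZNF451, ZNF185 and ZNF821. ZNF581 had log2 intensities of 10.49 and 10.48 unscratched beside HPAEC and 10.48 and 10.34 beside H838. At 3, 4 and 5 h it read 9.96, 9.70 and 9.93 beside HPAEC and 9.96, 9.77 and 9.69 beside H838, and at 24 h 10.64, 10.60, 10.55 and 10.55. All 6 middle-window arrays lay below the 4 unscratched ones, and the level was back at or above them by 24 h. The middle-window change was -0.61 ± 0.07 (a fold of 1.53 lower; adjusted p = 3.3e-05).

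ZNF395, a transcription factor known for roles in hypoxia and interferon responses, changed by -0.41 ± 0.07 (adjusted p = 0.00276). It read 8.94 and 8.86 at 5 h against 9.36 to 9.59 unscratched. ZNF451, a SUMO ligase, changed by -0.36 ± 0.08 (adjusted p = 0.00703), ZNF185 by -0.35 ± 0.10 (adjusted p = 0.0406) and ZNF821 by -0.31 ± 0.08 (adjusted p = 0.025). ZNF395, ZNF581 and ZNF185 kept their calls under median scaling, while ZNF451 (adjusted p = 0.0501) and ZNF821 (adjusted p = 0.117) did not. ZNF185 lost its call with no detection filter (adjusted p = 0.0779). ZNF185 read 10.66 and 10.47 unscratched beside HPAEC but 10.33 and 10.15 beside H838, and its arrays of 3 to 5 h, from 9.88 to 10.24, overlapped the latter.

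In the early window 1 member (0.431%) was higher and 0 lower, with 0.254% of all probes tested higher and 0.0299% lower (0.254% and 0.0149% of the other well-detected probes), and 31 members (13.4%, against 10.5% of all probes) reached an unadjusted p under 0.05. The 1 was ZNF503, also called NOLZ1, a developmental transcriptional repressor. It read 8.91 to 9.0 unscratched, 9.22 and 9.32 by 1 h, 9.76 and 10.06 by 2 h, and then 9.40 and 9.41 by 3 h. Its 2 h arrays were the highest of both courses. The change at 2 h was 0.95 ± 0.10 (adjusted p = 7e-05), and the early-window mean was 0.42 ± 0.08 (adjusted p = 0.0188), which did not pass under median scaling (adjusted p = 0.485).

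In the late window 29 probes of 25 genes were higher (12.5%) and 6 lower (2.59%). Among all probes tested 5.26% were higher and 5.52% lower, and among the other well-detected probes 6.31% and 7.28%. Both windows were set against the same 4 unscratched arrays. Side by side, middle and late, ZNF35 changed by 0.98 and 0.52, ZNF200 by 0.67 and 0.29, ZNF239 by 0.59 and 0.42, and the first ZNF706 probe by 0.30 and 0.59. Under median scaling 11 members passed (4.74%, against 2.86% of all probes tested), all higher. Leaving out the unscratched HPAEC replicate 2 array left 11 calls (4.74%, against 4.28% of all probes tested). Without HPAEC replicate 1 there were 14 (6.03% against 5.61%), and without H838 replicate 1 there were 17 (7.33% against 6.4%). In these fits without 1 unscratched array the members' share was close to that of all probes. Without H838 replicate 2 it was 11.2% (26 calls) against 8.81%. Leaving out the HPAEC 10 h array left 18 (7.76% against 6.21%), and the H838 15 h array 21 (9.05% against 7.99%).

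ZNF706, a small protein with a single zinc finger, rose by 0.59 ± 0.09 on each of its 2 probes (adjusted p = 0.000866 and 0.00102). On the first it read 7.33, 7.53, 7.56 and 7.64 unscratched, 8.12 and 7.96 by 10 h, 8.13 and 8.45 by 15 h, and from 7.86 to 8.07 on the 24 h arrays. All 8 late arrays lay above the 4 unscratched ones. ZNF207 behaved differently, with a peak at 2 times. On the probe with the largest change it read 10.17 to 10.39 unscratched, 10.71 and 10.72 by 10 h, 11 and 11.06 by 15 h, and 10.15 to 10.44 on the 24 h arrays. The change at 15 h was 0.78 ± 0.09 (adjusted p = 0.00038), and the late-window means of its 2 probes were 0.44 and 0.40 (adjusted p = 0.000753 and 0.000452).

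ZNF12, a KRAB gene also called KOX3, had the largest late-window mean, 0.61 ± 0.16 (adjusted p = 0.0241). It read 6.25 and 6.40 unscratched beside HPAEC but 7.21 and 7.14 beside H838, and at 15 h 7.22 and 7.62. Its late arrays beside HPAEC lay near the unscratched level beside H838, and the call was lost under median scaling (adjusted p = 0.0504). ZNF35, ZNF512 and ZNF10 were higher by 0.52 ± 0.07, 0.48 ± 0.09 and 0.46 ± 0.09 (adjusted p = 0.000544, 0.00289 and 0.00458), and these 3 kept their calls there.

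The 6 late falls were small. ZNF524, a telomere-binding protein, changed by -0.40 ± 0.08 (adjusted p = 0.00652) and read 7.25 and 7.28 at 10 h against 7.70 to 8.25 unscratched. The KRAB genes ZNF688, ZNF789 and ZNF419 changed by -0.40 ± 0.12, -0.35 ± 0.10 and -0.30 ± 0.07 (adjusted p = 0.0396, 0.0281 and 0.0161). ZNF526 changed by -0.32 ± 0.09 and ZNF581 by -0.26 ± 0.06 (adjusted p = 0.0359 and 0.018). None of these 6 passed under median scaling, where their adjusted p lay between 0.111 and 0.367.

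**Figure D4:**
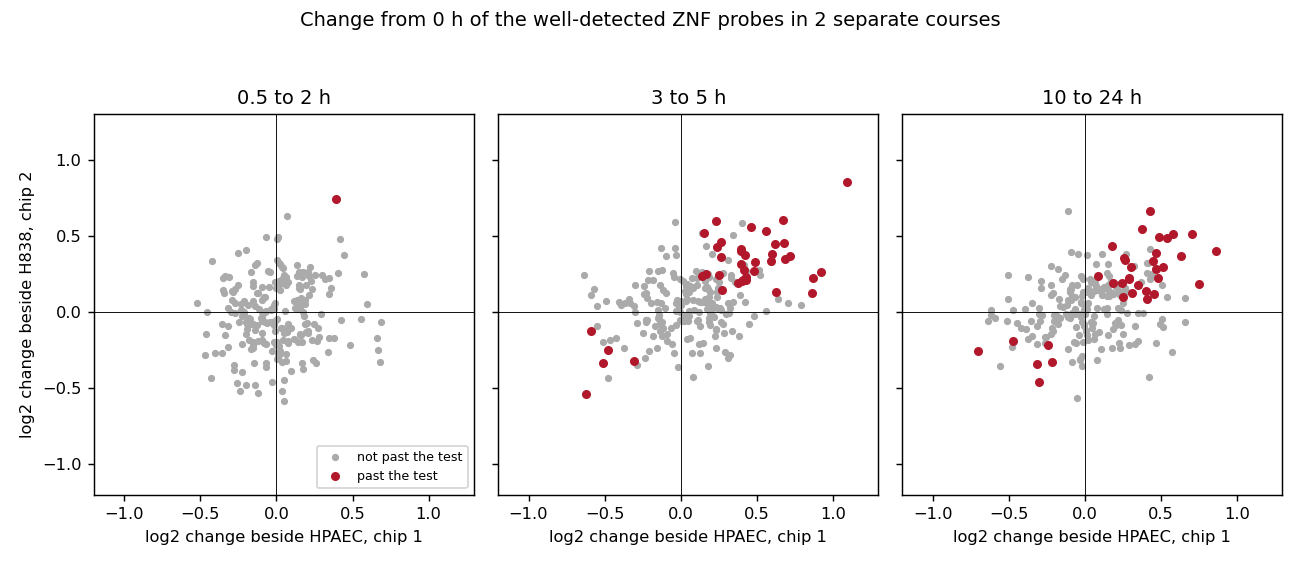
Log2 change of the 232 ZNF probes from the unscratched array in 2 courses that share no array, beside HPAEC on chip 1 (x axis) and beside H838 on chip 2 (y axis), for the early, middle and late windows. Red points passed the test of that window in the fit to all 24 arrays, which also uses these arrays. In the middle panel the 35 red rises lie in the upper right and the 5 red falls in the lower left.

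At 24 h against 0 h, the 2 times with duplicates, the fit to those 8 arrays called 9 probes of 8 genes higher (3.88%) and 1 lower (0.431%). Among all probes tested 2% were higher and 2.24% lower, and among the other well-detected probes 2.35% and 2.75%. The largest was ZNF12 with 0.56 ± 0.11 (adjusted p = 0.041), followed by ZNF512 with 0.50 ± 0.08 (adjusted p = 0.021) and both probes of ZNF627 with 0.48 ± 0.09 and 0.45 ± 0.08 (adjusted p = 0.0329 and 0.0306). The others were ZNF706, ZNF322, ZNF28, ZNF330 and ZNF277, and the fall was 1 of the 3 probes of ZNF174, with -0.39 ± 0.08 (adjusted p = 0.0358). ZNF35 and ZNF200, the largest middle-window rises, were at 0.26 ± 0.09 and 0.04 ± 0.09 in this comparison and did not pass. This count was the least stable, since leaving out any 1 of the 8 arrays left 0 or 1. Under median scaling it was 1, and with the authors' normalized values 18 (7.76%), of which 14 were higher, where 10.2% of all probes tested passed.

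Beside HPAEC compared with beside H838, 0 members were higher and 2 lower (0.862%), where 0.389% of all probes tested were higher and 0.294% lower (0.493% and 0.366% of the other well-detected probes), and 50 members (21.6%, against 16.3% of all probes) reached an unadjusted p under 0.05. The 2 were ZNF512, a C2H2 protein, and the KRAB gene ZNF227. ZNF512 read 8.56 and 8.60 unscratched beside HPAEC against 9.03 and 8.96 beside H838, and 9.09 and 9.01 at 24 h against 9.48 and 9.55. It was lower beside HPAEC at 9 of 10 times, by 0.41 ± 0.08 on the log2 scale (a fold of 1.33; adjusted p = 0.0357). In the 4 co-culture pairs matched for both time and chip, the difference was -0.47, -0.41, -0.35 and -0.50.

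ZNF227 was lower beside HPAEC at 9 of 10 times and level at 2 h, at 7.30 in both co-cultures. The fitted difference was -0.34 ± 0.07 (adjusted p = 0.0462), and the matched-pair differences were -0.20, -0.35, -0.23 and -0.38. Its lowest reading was 6.65, on an unscratched array beside HPAEC, and its highest 7.41, at 5 h beside H838. Both calls were lost under median scaling, where the differences were -0.43 and -0.36 (adjusted p = 0.356 and 0.306), and with no detection filter (adjusted p = 0.0553 and 0.0712). ZNF227 also lost its call with the authors' normalized values (-0.19, adjusted p = 0.104) and without background correction (-0.20, adjusted p = 0.0669), where ZNF512 kept it. ZNF512 also lost its call without any of 12 single arrays and ZNF227 without any of 18. Without a chip term 23 members passed (9.91%), 7 higher and 16 lower, where 11.9% of all probes tested did, and a random chip block gave 30 (12.9%, against 13.4%). The members' median difference was -0.03, and in the 4 matched pairs their medians were -0.02, -0.05, -0.05 and -0.01, with 123 to 137 of 232 lower beside HPAEC.

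**Figure D5:**
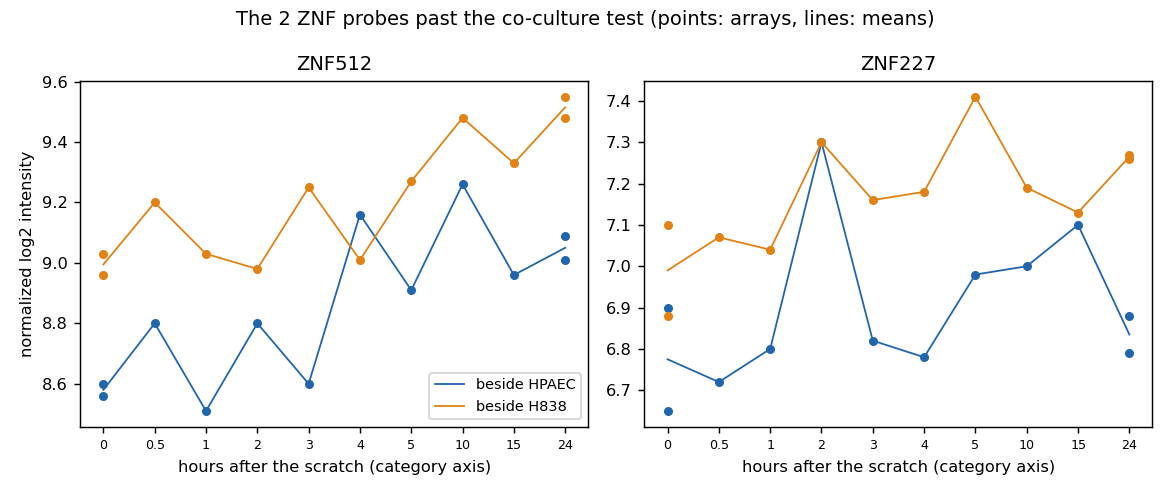
Normalized log2 intensity of ZNF512 and ZNF227, the 2 ZNF probes past the co-culture test, on each of the 24 arrays, by hours after the scratch, beside HPAEC (blue) and beside H838 (orange). Points are arrays and lines join the means. Both genes are lower beside HPAEC at 9 of 10 times, and ZNF227 is level at 2 h.

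The change over the windows differed between the co-cultures for 0 members and 0 of all 20054 probes (0%) in limma's test of the difference itself. In that test the times of a window served as replicates, so changes within a window counted as spread. Chip also nearly coincided with co-culture, so 0 calls do not show that the courses were alike. At an unadjusted p under 0.05 there were 6 members (2.59%), against 5.79% of all probes. The smallest p-values belonged to the KRAB genes ZNF138, ZNF626 and ZNF549, and limma's adjusted p was 0.54, 0.62 and 0.78. ZNF138 read 6.17 and 6.53 unscratched beside HPAEC and 6.82 and 7.04 beside H838, and 6.90 and 6.23 at 0.5 h, so its courses crossed. ZNF711 was picked out after its values were seen. It passed the time test (adjusted p = 0.0455), but its middle-window change was -0.41 beside HPAEC on chip 1 and 0.06 beside H838 on chip 2, and the test of the difference gave an adjusted p near 1.

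The steadiest members were ZNF839, ZNF770, ZNF362 and the imprinted KRAB gene ZNF331, whose 10 time means spanned 0.13, 0.17, 0.19 and 0.20. Single arrays of ZNF839 lay between 8.95 and 9.36. The difference between duplicate arrays had an SD across probes of 0.18 to 0.22 for the members and 0.24 to 0.29 for all probes tested. It is a difference of single arrays, while each time mean averages several, so the measures are not alike.

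Different probes of a gene did not always match. Among 29 genes with 2 or 3 member probes there were 35 probe pairs, of which 28 had the same sign in the middle window, and the median correlation of their 10 time means was 0.51. All probes passed the time test in 3 genes, ZNF207, ZNF627 and ZNF706, whose probe pairs correlated at 0.965, 0.923 and 0.943. In 6 genes only some probes passed, as in ZNF200. ZNF789 had a probe with a late change of -0.35 that passed and others with -0.28 and -0.17 that did not.

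Many ZNF genes stand in clusters, and 78 of the 175 located members (44.6%) were on chromosome 19, against 6.6% of the other well-detected genes. The median middle-window change was 0.09 both on chromosome 19 and elsewhere, with 9 of 78 and 16 of 97 genes called higher on their brightest probe. ZNF322 was called on another probe only and makes up the 26 risers counted for the promoters. Of 38 pairs of members that are immediate neighbours in the RefSeq gene order, 17 (44.7%) were both above 0 in the middle window, against 44.8% of all pairs of member genes, and 17 had opposite signs. The pairs given next were those with the largest change of either gene. That choice favours a smaller change in the partner, so their contrast is no result about neighbours. ZNF581 (-0.61) lies between ZNF784 (0.12) and ZNF580 (0.16). ZNF268, beside ZNF10 (0.58), was at -0.06, and ZNF667, beside ZNF583 (0.55), at 0.08.

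KRAB proteins act through shared cofactors, and a list of these and of heterochromatin genes had 36 tested genes. In the middle window 2 were higher and 3 lower (median -0.01), where 5.39% and 4.52% of all probes tested were. In the late window 1 was higher and 3 were lower (median -0.03), where 5.26% and 5.52% of all probes tested were. So few calls do not set the list of 36 genes apart from all probes. TRIM28 itself was at -0.08 ± 0.09 in the middle window and SETDB1 at 0.01 ± 0.09, and neither passed. The histone deacetylase scaffold SIN3A fell by 0.60 and TASOR, a subunit of the HUSH silencing complex, by 0.46 (adjusted p = 4.4e-05 and 0.00695). MTA1 of the NuRD complex fell by 0.22, while the heterochromatin protein CBX5 and the histone chaperone RBBP4 rose by 0.34 and 0.27 (adjusted p = 0.0477, 0.0433 and 0.0167). In the late window RBBP4 rose by 0.40, and DNMT1, MTA1 and SIN3A fell by 0.27, 0.35 and 0.29 (adjusted p from 0.00125 to 0.0129).

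Related zinc finger families gave smaller sets. The middle-window median was 0.04 over 31 ZBTB probes (3 higher, 2 lower), 0.17 over 9 ZSCAN probes (0 higher, 1 lower), 0.10 over 7 ZKSCAN probes (0 called) and 0.08 over 14 ZFP probes (2 higher, 0 lower). The 159 tested ZNF probes that were not detected on all arrays had a median of 0.08, with 14 higher and 2 lower. Among all probes tested 5.39% were higher and 4.52% lower in this window. The 159 entered the fit by detection on at least 2 arrays, which could be the arrays where they were high. Their median therefore cannot show whether the rise holds apart from detection.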

How the data were processed

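Per the file headers, the non-normalized table deposited by the authors gives each probe's average bead intensity (linear scale) and its detection p-value on every array. The deposited series matrix holds the authors' normalized linear intensity, whose method is not given in the sources used here, and served as an alternative. Symbols came from the supplied probe annotation, under which 30080 of 47286 probes had a single symbol, 8 had several and 17198 were not listed. By Entrez identifier 30041 were found in RefSeq. Promoter sequences and gene order are RefSeq's (GRCh38.p14).

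Intensities were background corrected with limma's normexp model from detection p-values (offset 16), quantile normalized and put on the log2 scale. The 20054 probes with detection p under 0.01 on at least 2 arrays were fitted (lmFit and eBayes, two-sided, Benjamini-Hochberg over all of them, threshold 0.05) with time, co-culture and chip over 24 arrays (12 residual degrees of freedom). A model of window by co-culture plus chip (15 degrees of freedom) tested the difference between courses, and 1 on the 8 arrays of 0 and 24 h (4 degrees of freedom) the duplicated times. R 4.3.3, limma 3.58.1, data.table (version 1.17.8), Python 3.11.15 and pandas 2.3.3 were used, and the fits were tested on simulated data.

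Members and lists were chosen with earlier results of these data known. Named genes followed a rule: all co-culture calls, the 12 largest consistent time changes, up to 6 rises and 6 falls per window, the 3 smallest p where none passed, the 4 flattest members, the 5 most like the top one, 4 neighbour pairs and 4 probes on each side of the detection threshold. Same-numbered duplicates did not vary together (correlations of deviations -0.041 to 0.131), and whether duplicates were separate cultures is not stated by the labels, so p-values measure the spread between these arrays. Samples were grouped by title; for both HPAEC replicate 2 samples another label field names H838 as the second cell line. Arrays have no read depth. Their number limits precision, and detection gives signal over background. Protein classes were not analysed here.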

Additional observations from a re-analysis of the deposited data

How the results depend on the processing

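Over 26 named results and all alternatives, 756 values kept their side of the threshold, 178 lost it and 0 reversed. More than 1.5 times smaller were 9 named changes with the authors' values and 8 without background correction: the middle and late changes of ZNF35 and ZNF10, the late changes of ZNF12, ZNF688 and ZNF789, the co-culture difference of ZNF227 and, with the authors' values only, the late change of ZNF524. With the replicate block only that of ZNF789 was. The counts of members called moved as follows. Under median scaling the time effect went from 53 to 25, a share of 10.8% against 6.38% of all probes tested. The middle and late windows went from 40 and 35 to 11 each (4.74% against 3.11% and 2.86%). The early window and the co-culture effect went from 1 and 2 to 0. The count for 24 h against 0 h went from 10 to 1 (0.431% against 2.48%). With no detection filter the late window fell to 20 (8.62%, against 3.29% of all probes tested). The co-culture effect fell to 0 there and 24 h against 0 h to 1 (0.431% against 0.446%). With detection on all 24 arrays the co-culture effect was 6 (2.59% against 3.39%) and 24 h against 0 h 29 (12.5% against 14.7%). The latter was 20 (8.62% against 9.85%) without background correction and 18 (7.76% against 10.2%) with the authors' values. Without the chip term the co-culture effect was 23 (9.91% against 11.9%), and a random block for chip gave 30 (12.9% against 13.4%). On either chip alone the co-culture, time, early, middle and late counts were 0, in fits with 1 and 2 residual degrees of freedom, and the middle-window medians of members were 0.11 and 0.09.

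The replicate block put in the replicate number as a term, though the numbers did not pair the arrays. With it the middle window had 25 calls (10.8%, against 5.51% of all probes tested) and the time effect 37 (15.9% against 10.4%). The co-culture effect, the early window and 24 h against 0 h had 0 calls with it. Of the 26 named results 8 lost their call, ZNF185 (middle window, adjusted p = 0.0928) and both co-culture genes (0.0736 and 0.124) among them.

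Leaving out 1 array in turn (for times with 1 array per co-culture a check added after seeing the data) gave 39 to 58 calls for time, 22 to 43 for the middle window, 11 to 37 for the late window, 0 to 1 for the early window, 0 to 2 for the co-culture effect and 0 to 1 for 24 h against 0 h. The early call was lost without the HPAEC 0 h replicate 1, either H838 0 h, the HPAEC 0.5 h, the H838 1 h or the H838 2 h array. The co-culture count was 0 without either H838 0 h or 24 h array, either HPAEC replicate 2 array or the 0.5 or 5 h array of either co-culture, and 1 without the 1, 3, 10 or 15 h array of either. The causes were not tested. The difference between courses had 0 calls in each setting run. Dim members read near the detection limit, and how far background correction set the size of their changes was not tested.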
